A study of Mus musculus with 12 samples.

Results

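The genes described here encode the proteins of the mitochondrial ribosome. They were taken by their names in the count table, as every id that starts with Mrpl or Mrps followed by a digit, without ids that contain -ps. The rule found 78 of the 16352 genes of the table, and all 78 had enough reads to be tested, as did 12404 genes in all. Primary CD8 T cells of C57BL/6 mouse spleen were sequenced as 12 RNA-seq libraries in 4 groups of 3. The groups were Trmt61A conditional knockout (cKO) cells at 48 h, wild type (WT) cells at 48 h, cKO cells at 0 h and WT cells at 0 h. Trmt61A is the catalytic subunit of an enzyme that methylates an adenosine of transfer RNA. The labels name neither the Cre driver of the cKO nor the handling of the cells from 0 h to 48 h, and they do not tie a library to a single mouse. The p-values thus reflect variation among these libraries only, and some of it may be technical.

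Mitochondria carry their own ribosomes, which translate the few messenger RNAs encoded by the mitochondrial genome into core subunits of the respiratory chain and the ATP synthase. The large subunit, called 39S, forms peptide bonds and holds the exit tunnel of the new chain, and the small subunit, called 28S, binds messenger RNA and reads its codons. Every protein of both subunits is encoded in the nucleus, made on cytosolic ribosomes and imported, and many have no relative in bacteria. Activated T cells enlarge their mitochondria and depend on mitochondrial translation for proliferation and effector function. By their place in the ribosome, 51 of the 78 genes encode 39S proteins and 26 encode 28S proteins. The 39S count includes Mrps30 and Mrps18a, whose proteins sit in the large subunit in spite of their names. Mrps36 belongs to neither, since its protein is a component of the 2-oxoglutarate dehydrogenase complex.

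The promoters of 5 genes among the strongest risers and the genes that fell over time, and of the gene called between genotypes, are shown so that their letters can be read beside the values. RefSeq promoter entries (GRCm38.p6, 250 bases before to 50 after each start) existed for 69 of the 78 genes, with 75 entries in all. The sequences are the 100 bases just upstream of the start, 5′ to 3′ on the strand of the gene, and capitals mark motifs: the ETS core CCGGAAG, the E-box CACGTG and, in Mrpl12, a match to the NRF1 core on the opposite strand. Mrpl24 holds none of them in these bases. Neither does Mrps6, which rose most in cKO and whose sequence is not printed, so the printed risers do not stand for all strong risers. Mrps22 lies on the minus strand at chr9:98601680-98601779, Mrpl12 on the plus strand at chr11:120484537-120484636 and Mrpl20 on the plus strand at chr4:155802778-155802877, and all 3 were higher at 48 h. Mrpl24 lies on the plus strand at chr3:87919444-87919543 and Mrpl58 on the plus strand at chr11:115403652-115403751, and both were lower at 48 h. Mrpl43, on the minus strand at chr19:45006443-45006542, was the gene called between cKO and WT.
Mrps22: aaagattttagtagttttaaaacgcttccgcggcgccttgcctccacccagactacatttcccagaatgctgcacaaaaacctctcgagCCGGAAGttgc
Mrpl12: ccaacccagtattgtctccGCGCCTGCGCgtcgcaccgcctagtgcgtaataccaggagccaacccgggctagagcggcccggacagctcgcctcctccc
Mrpl20: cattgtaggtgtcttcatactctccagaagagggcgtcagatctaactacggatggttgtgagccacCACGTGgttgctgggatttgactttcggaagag
Mrpl24: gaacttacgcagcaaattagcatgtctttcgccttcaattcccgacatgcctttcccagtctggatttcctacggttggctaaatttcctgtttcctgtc
Mrpl58: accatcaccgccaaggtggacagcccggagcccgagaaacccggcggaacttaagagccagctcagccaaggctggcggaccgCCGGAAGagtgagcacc
Mrpl43: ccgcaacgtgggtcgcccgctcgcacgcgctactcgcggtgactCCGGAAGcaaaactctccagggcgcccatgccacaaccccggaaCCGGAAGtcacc

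Motifs were searched on both strands of the whole promoter window, each by its letters. The ETS core CCGGAAG, read by GABPA and its relatives, was in 34.7% of the promoters of the 78 genes, in 17.5% of those of all tested genes and in 8.86% of all RefSeq promoters. The core of NRF1, a factor known for its mitochondrial target genes, is the capital stretch of the Mrpl12 sequence with any base at position 5 from its left end, and it was in 17.3%, 9.86% and 4.6% of these sets in the same order. A longer YY1 motif was in 6.67%, 1.97% and 0.852%, and the E-box CACGTG in 9.33%, 9.78% and 7.15%. CCAAT was in 30 of the 75 promoters of the 78 genes, in 38.1% of those of tested genes and in 37.4% of all. These shares count promoter entries, and some genes have several. Per gene, the E-box was in 7.25% of the 69 genes with an entry, against 11.6% of the tested genes that have an entry. CCAAT, counted the same way, was in 39.1% against 43.4%. The change over time was smaller at the median for genes with an ETS or NRF1 core and larger for genes with an E-box or YY1 motif. Median log2 fold changes of 48 h over 0 h were 0.40 in cKO and 0.75 in WT for the 26 genes with an ETS core, against 0.78 and 0.96 for the other 43 genes with an entry. For the 13 genes with an NRF1 core they were 0.33 in cKO and 0.63 in WT, against 0.75 and 0.94 for the 56 without. For the 5 genes with an E-box they were 0.84 and 0.96, against 0.64 and 0.79 for the 64 without. For the 5 with the YY1 motif they were 0.91 and 1.08, against 0.62 and 0.79 for the 64 without. Genes with CCAAT, 27 in number, had 0.64 in cKO and 0.91 in WT, against 0.72 and 0.85 for the 42 without. These are descriptions of letters in a window, with no test.

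Libraries held about 34341800 to 40270700 counts each, and counts of a single mitochondrial ribosomal protein gene ran from 221 to 6610, so that counting error was at most 6.73% of a value. Levels are given as CPM, counts scaled to library size with TMM factors. They are thus relative to the other RNA of a library, and a rise or fall does not give an amount per cell. The targeted gene itself had 42.5, 0.956 and 1.10 CPM in the 3 cKO libraries at 48 h, against 42.0, 38.2 and 34.8 CPM in WT. At 0 h it had 28.1, 0.807 and 1.88 CPM in cKO, against 27.4, 29.8 and 26.3 CPM in WT. The library labelled cKO replicate 1 thus held Trmt61a at the WT level at both times, and the main results between genotypes are set beside fits without it. WT replicate 3 had 0 to 2 counts of each of 4 Y-linked genes at both times, and the other 10 libraries had at least 694. The summed level of the 7 CD8 T cell markers, Cd8a and Cd3e among them, was 2055 to 2112 CPM in cKO and 2002 to 2007 CPM in WT at 48 h. At 0 h the same sum ran from 4620 to 4841 CPM in cKO and from 4305 to 4683 CPM in WT. For the 10 B cell markers the sums were 23.8 to 24.98 CPM in cKO and 20.2 to 32.6 CPM in WT at 48 h, and 98.6 to 121 CPM in cKO and 123 to 216 CPM in WT at 0 h. The 10 myeloid markers reached 7.54 to 12.4 CPM at 48 h, with Clec4a2 at 0 in both genotypes, and 26.6 to 49.5 CPM at 0 h. Erythroid genes, 6 in number, stayed at or below 1.83 CPM in sum at 48 h, with Ahsp at 0, and lay between 8.35 and 97.2 CPM at 0 h. The sum of the 4 platelet markers was at most 2.12 CPM at 48 h, with Ppbp and Gp9 at 0, and 5.97 to 11.4 CPM at 0 h. For the 4 CD4 and regulatory T cell markers the range was 32.2 to 56.4 CPM at 48 h, against 22.5 to 49.5 CPM at 0 h. The 7 NK cell markers, mostly Eomes, which CD8 T cells also use, gave 64.4 to 113 CPM in cKO and 110.3 to 118 CPM in WT at 48 h, against 32.4 to 42.1 CPM at 0 h, with Ncr1 and Klra4 at 0 at 48 h. The part of these cells in the results was not tested, and in such bulk samples fewer cells of a type and less RNA per cell cannot be told apart.

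Per kilobase of the principal transcript (GENCODE lengths), the 78 genes spanned 4.47 to 106 CPM per kilobase in cKO at 48 h, 5.35 to 122 in WT at 48 h, 2.16 to 105 in cKO at 0 h and 2.48 to 99.6 in WT at 0 h. The medians were 33.1, 37.2, 18.9 and 18.7 CPM per kilobase in the same order. The leading genes differed between times. At 48 h Mrpl33, Mrpl20 and Mrpl12 led in both genotypes, with 106, 103 and 95.3 CPM per kilobase in cKO and 110.1, 122 and 118 in WT. At 0 h Mrpl24 led, with 105 CPM per kilobase in cKO and 99.6 in WT, and Mrpl52, Mrpl33 and Mrpl30 took the next 3 places in both. Mrpl20 stood 18th and 20th of the 78 at 0 h in cKO and WT, and Mrpl12 17th and 19th. Mrps25 and Mrpl17, whose principal transcripts are long, had the lowest levels per kilobase in all 4 groups.

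Between 0 h and 48 h the mitochondrial ribosomal protein genes rose almost as a block in both genotypes. In cKO 62 of 78 were higher at 48 h and 4 were lower, against 36.4% of all tested genes called higher and 36.2% called lower. In WT 71 were higher and 2 lower, against 36.9% and 38.4% of all tested genes (edgeR quasi-likelihood test, Benjamini-Hochberg adjusted p under 0.05 over all tested genes). The median log2 fold change was 0.67 in cKO and 0.91 in WT, that is 1.59-fold and 1.88-fold, and the median over all tested genes was -0.02 in both. Libraries of the 2 times did not overlap in cKO for 62 genes above and 4 below, against 37.3% and 37.5% of tested genes, and in WT for 71 above and 2 below, against 39% and 39.9%. At least 2-fold rises were called for 15 genes in cKO and 32 in WT, against 19% and 20.9% of all tested genes. Without the library labelled cKO replicate 1, 56 were higher and 4 lower in cKO, against 33.6% and 32.8% of tested genes, with a median of 0.58.

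**Figure D1:**
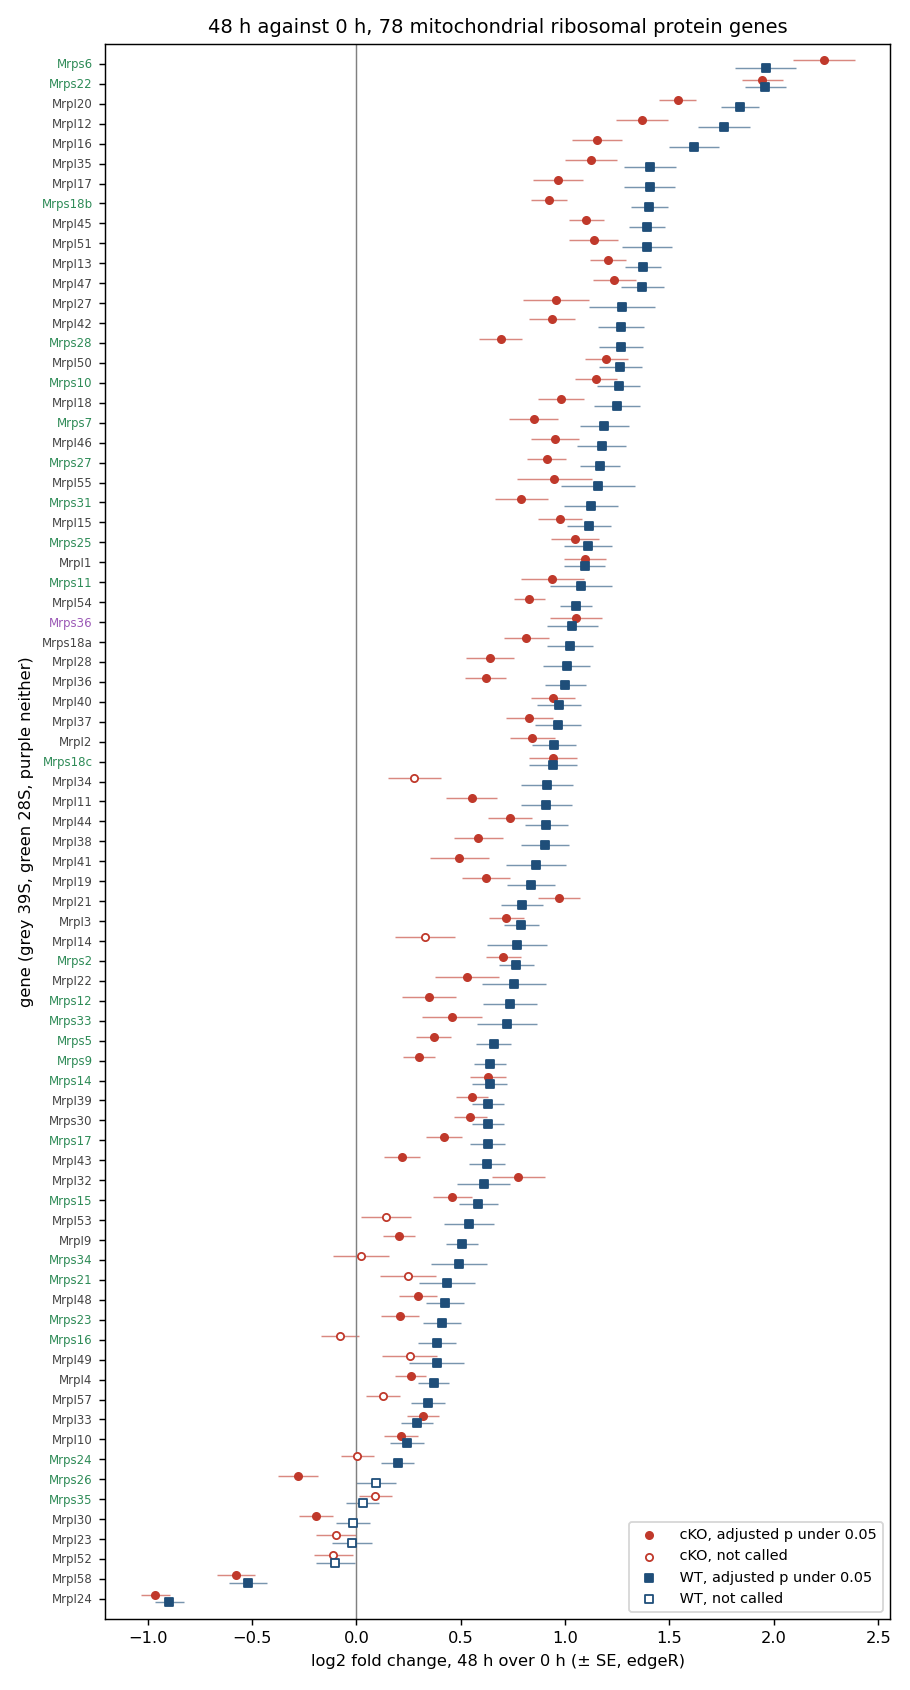
Log2 fold change of 48 h over 0 h (± SE, edgeR) for each of the 78 genes, in cKO (circles) and WT (squares), sorted by the WT value, with filled symbols for adjusted p under 0.05. Mrps6 and Mrps22 are at the top of both genotypes, Mrpl24 and Mrpl58 at the bottom, and 72 of the 78 cKO values lie below the WT value of the same gene.

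The largest rises belonged to both subunits. Mrps6, a 28S protein with a bacterial relative, had 43.2, 35.7 and 34.1 CPM in cKO at 48 h, against 8.31, 9.03 and 6.60 CPM in cKO at 0 h. It had 41.0, 38.5 and 46.6 CPM in WT at 48 h, against 8.94, 11.6 and 11.8 CPM in WT at 0 h. Every 48 h library lay far above every 0 h library. The log2 fold change was 2.24 ± 0.15 (SE) in cKO (edgeR adjusted p = 4.35e-09) and 1.96 ± 0.15 in WT (edgeR adjusted p = 1.18e-08). In the GRCm38 annotation Mrps6 shares bases with Slc5a3, a myo-inositol transporter gene. Slc5a3 was also higher at 48 h, by 1.62 in cKO and 1.18 in WT (log2). The overlap was taken over whole gene spans, introns included, and the strand setting of the counting is not given in the sources used here. Whether reads of either gene were counted for the other was not tested. In all, 20 of the 78 genes share bases with another gene of the count table.

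Mrps22, a 28S protein with no bacterial relative, had 39.9, 38.3 and 39.1 CPM in cKO at 48 h, against 9.39, 10.96 and 10.1 CPM in cKO at 0 h. In WT it had 43.1, 37.6 and 41.9 CPM at 48 h, against 11.04, 9.61 and 10.9 CPM at 0 h. The 2 genotypes overlapped at each time, and the times did not. The log2 fold change was 1.95 ± 0.10 in cKO (edgeR adjusted p = 2.51e-10) and 1.96 ± 0.10 in WT (edgeR adjusted p = 1.72e-10).

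Mrpl20, an RNA-binding 39S protein of bacterial descent, had 89.6, 72.9 and 73.6 CPM in cKO at 48 h, against 25.9, 26.04 and 29.3 CPM in cKO at 0 h. The WT values were 92.6, 89.8 and 97.6 CPM at 48 h, against 24.7, 26.4 and 27.1 CPM at 0 h. At 48 h every cKO library was under every WT library, with the library labelled cKO replicate 1 closest to WT. The rise was 1.54 ± 0.09 in cKO (log2, edgeR adjusted p = 1.15e-09) and 1.84 ± 0.09 in WT (edgeR adjusted p = 1.40e-10).

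The stalk that recruits translation factors to the 39S subunit is built from Mrpl10, Mrpl11 and Mrpl12, and all 3 genes rose in both genotypes. Mrpl12, the stalk protein that also binds the mitochondrial RNA polymerase, had 155, 106 and 115 CPM in cKO at 48 h, against 44.4, 49.5 and 51.6 CPM in cKO at 0 h. In WT its values were 166, 138 and 163 CPM at 48 h, against 46.7, 45.1 and 46.2 CPM at 0 h. The times did not overlap, and at 48 h the library labelled cKO replicate 1 lay within the WT range and the other 2 cKO libraries below it. Mrpl12 rose by 1.37 ± 0.12 in cKO and 1.76 ± 0.12 in WT, Mrpl11 by 0.55 and 0.91, and Mrpl10 by 0.21 and 0.24 (log2).

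Other genes of both subunits moved the same way by different amounts. Around the peptidyl transferase centre, Mrpl3 rose by 0.72 in cKO and 0.79 in WT, and Mrpl16, a protein of the tRNA-binding face, by 1.15 and 1.62. Of the 6 genes of the exit tunnel, Mrpl45, which ties the ribosome to the inner membrane, rose by 1.10 in cKO and 1.39 in WT, and 4 of the 6 rose in each genotype. The tunnel gene Mrpl23 had log2 fold changes of -0.10 and -0.02 and was not called. Of the 28S subunit, the decoding protein gene Mrps12 rose by 0.35 in cKO and 0.74 in WT. The 3 relatives of bacterial S18, Mrps18a in the large subunit and Mrps18b and Mrps18c in the small one, rose by 0.81, 0.92 and 0.94 in cKO and by 1.02, 1.40 and 0.94 in WT. Mrps36, the dehydrogenase component, rose by 1.05 and 1.03. Among the strongest risers of the large subunit were also Mrpl47, with 1.24 in cKO and 1.37 in WT, Mrpl35, with 1.123 and 1.41, and Mrpl17, with 0.97 and 1.40.

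**Figure D2:**
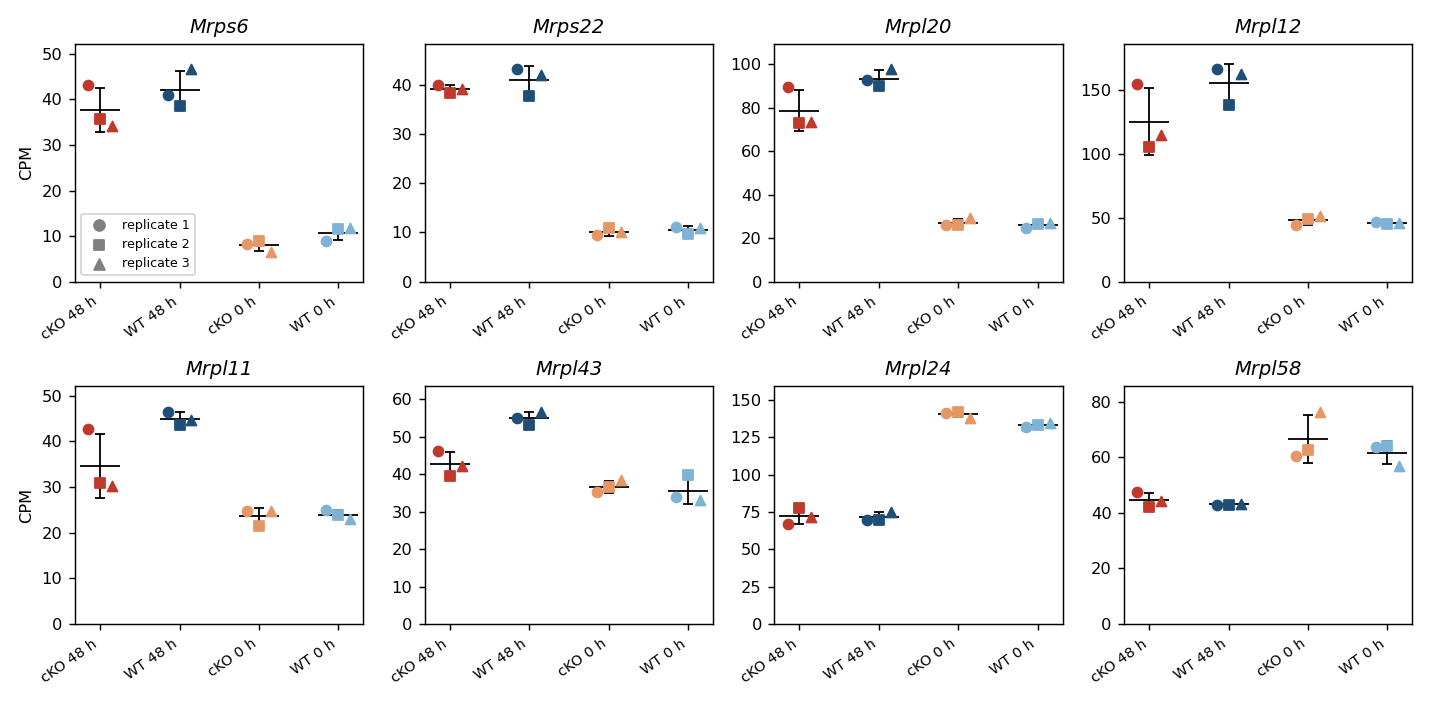
CPM of 8 mitochondrial ribosomal protein genes in every library, by group, with the symbol shape giving the replicate and the group mean and SD as lines (n = 3). Mrps6, Mrps22, Mrpl20, Mrpl12, Mrpl11 and Mrpl43 are higher at 48 h, Mrpl24 and Mrpl58 lower, and for Mrpl12 and Mrpl11 the library labelled cKO replicate 1 lies near WT at 48 h.

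A few genes ran against the others. Mrpl24, a 39S protein near the exit tunnel, had 67.0, 77.8 and 71.4 CPM in cKO at 48 h, against 141, 142 and 138 CPM in cKO at 0 h. In WT it had 69.9, 69.8 and 75.2 CPM at 48 h, against 132, 133 and 135 CPM at 0 h. It had the highest level per kilobase of the 78 at 0 h and fell by 0.96 ± 0.07 in cKO (log2, edgeR adjusted p = 1.02e-08) and by 0.90 ± 0.07 in WT (edgeR adjusted p = 1.83e-08), with no overlap between the times. Rrnad1, a gene whose span shares bases with that of Mrpl24, also fell, by 0.62 in cKO and 0.76 in WT. Whether reads of either gene were counted for the other was not tested.

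Mrpl58, which frees stalled ribosomes by cutting the peptide from its tRNA, had 47.3, 42.2 and 44.4 CPM in cKO at 48 h, against 60.4, 62.7 and 76.4 CPM in cKO at 0 h. In WT it had 42.9, 43.0 and 43.2 CPM at 48 h, against 63.7, 64.2 and 56.9 CPM at 0 h. All 48 h libraries were below all 0 h libraries, with log2 falls of 0.58 ± 0.09 in cKO (edgeR adjusted p = 4.40e-05) and 0.52 ± 0.09 in WT (edgeR adjusted p = 0.000109). Mrpl52 and Mrps35, called in neither genotype, had log2 fold changes of -0.11 and 0.09 in cKO and of -0.10 and 0.03 in WT. In cKO alone the test also called Mrps26 and Mrpl30 lower, by 0.28 ± 0.10 (edgeR adjusted p = 0.0182) and 0.20 ± 0.08 (edgeR adjusted p = 0.0434). Their WT values were 0.09 and -0.02, not called, and the interaction was called for neither gene. The Mrpl30 call was lost with RLE scaling, with no filter, with DESeq2, with the replicate block and with only the groups compared, and when any of several libraries was left out. The Mrps26 call was lost without cKO replicate 2 or 3 at 48 h or cKO replicate 2 at 0 h.

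Both subunits rose in both genotypes, with the larger median rise in the 39S genes. In cKO 41 of 51 39S genes were higher at 48 h and 3 lower (median log2 fold change 0.72), and 20 of 26 28S genes were higher and 1 lower, with a median of 0.55. In WT 46 of 51 39S genes were higher and 2 lower, with a median of 0.91, and 24 of 26 28S genes were higher and 0 lower, with a median of 0.73. Within the large subunit, in cKO 24 of the 29 genes listed with bacterial relatives and 15 of the 19 listed without were higher at 48 h. In WT 26 and 18 were. Mrpl55, Mrpl58 and Mrps18a were in neither list. The summed CPM of the 39S genes was 2.31, 2.34 and 2.32 times that of the 28S genes in the cKO libraries at 48 h, and 2.30, 2.25 and 2.36 times in WT. At 0 h the ratio was 2.24, 2.22 and 2.28 in cKO and 2.23, 2.28 and 2.30 in WT. The 4 groups thus lay within a narrow band whose cKO values at 48 h were above its cKO values at 0 h, and whose WT values overlapped between the times.

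The summed CPM of all 78 genes was 4075, 3473 and 3568 in cKO at 48 h, and 4282, 4017 and 4327 in WT at 48 h. At 0 h it was 2465, 2508 and 2668 in cKO, and 2469, 2541 and 2452 in WT. The group means were 3705 ± 323 and 4208 ± 168 at 48 h, and 2547 ± 107 and 2487 ± 47.2 at 0 h (SD, n = 3), in cKO and WT in turn. The times did not overlap in either genotype. The rise was 45.5% in cKO and 69.2% in WT, and at 48 h only the library labelled cKO replicate 1 lay inside the WT range.

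Genes of the cytosolic ribosome went the other way on this relative scale. Of the 86 tested genes whose ids start with Rpl or Rps and a digit, or with Rplp, 78 were lower and 4 higher at 48 h in each genotype, with median log2 fold changes of -0.77 in cKO and -0.80 in WT. The 4 higher ones were Rps27l, Rps19bp1, Rpl7l1 and Rps2, of which Rps19bp1 encodes a binding partner of a ribosomal protein and Rpl7l1 a factor of ribosome assembly. Summed over all 88 such cytosolic genes of the count table, tested or not, the level averaged 88116 ± 3918 CPM in cKO and 88772 ± 3094 CPM in WT at 48 h. At 0 h it averaged 153999 ± 6589 and 155033 ± 5952 CPM. Per 100 CPM of cytosolic ribosomal protein genes, the mitochondrial ones had 4.87, 3.89 and 3.91 CPM in cKO at 48 h, against 1.57, 1.71 and 1.68 CPM in cKO at 0 h. In WT they had 4.74, 4.71 and 4.76 CPM at 48 h, against 1.56, 1.60 and 1.65 CPM at 0 h. Counts of cytosolic ribosomal protein genes are uncertain because of their many processed pseudogenes. For the mitochondrial set 6 pseudogenes are named in the annotation and 0 of them are in the count table.

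**Figure D3:**
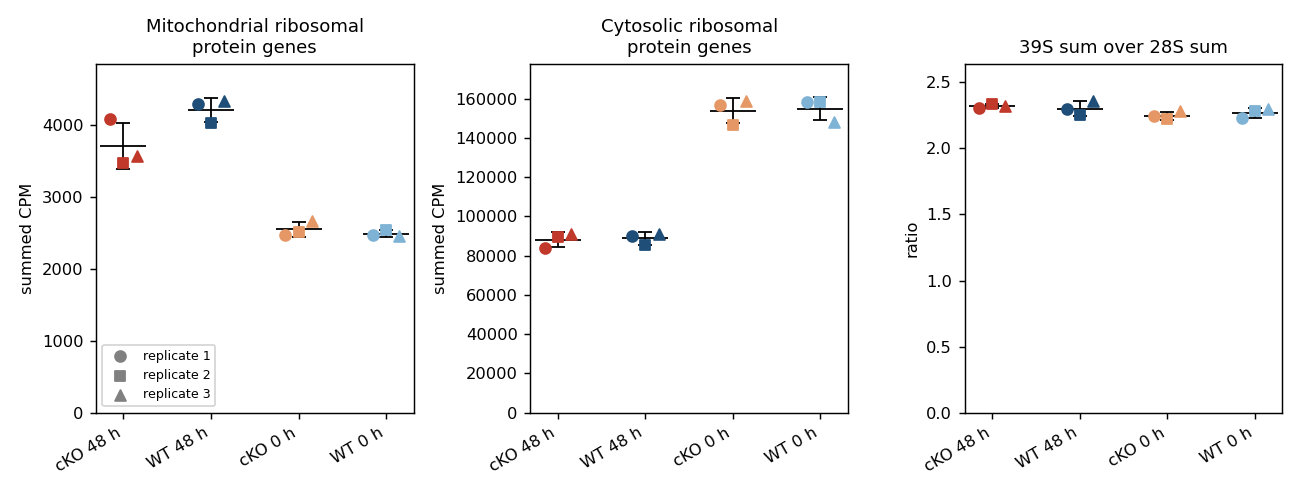
Summed CPM of the 78 mitochondrial and the 88 cytosolic ribosomal protein genes of the count table, and the ratio of the 39S to the 28S sum, in each library, with the group mean and SD as lines (n = 3). The mitochondrial sums are 3473 to 4327 CPM at 48 h, against 2452 to 2668 CPM at 0 h, the cytosolic sums are lower at 48 h, and the ratio stays between 2.22 and 2.36.

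Among genes that work with the mitochondrial ribosome, those of import rose together. Of all tested genes, 36.4% were called higher and 36.2% lower in cKO, and 36.9% higher and 38.4% lower in WT. In the list of 20 genes of mitochondrial protein import and chaperones, all 20 rose in both genotypes, with medians of 0.96 in cKO and 1.28 in WT (log2). Hspd1, the matrix chaperonin, rose by 2.58 in cKO and 2.82 in WT, and Tomm40, the pore of the outer membrane, by 1.5 and 2.03. Of 17 translation factors, 7 rose and 2 fell in each genotype. The elongation factor genes Tufm, Tsfm and Gfm1 rose by 0.61, 1.22 and 1.34 in cKO and by 0.97, 1.61 and 1.54 in WT, and the initiation factor gene Mtif3 fell by 0.80 and 0.70. Of 27 genes for ribosome assembly and rRNA modification, 10 rose and 7 fell in cKO, and 11 rose and 7 fell in WT. C1qbp, a matrix protein that binds the ribosome, rose by 1.42 and 1.84, and Mettl17, an assembly factor of the small subunit, fell by 1.33 and 1.32. Further proteins of the ribosome carry other names. Of these, Ptcd3, Chchd1, Dap3 and Gadd45gip1 rose in both genotypes, and Aurkaip1 rose by 0.19 in WT and had 0.07 in cKO, not called.

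Regulators and the machinery of the mitochondrial genome moved both ways. Of 11 regulators, 6 rose and 5 fell in cKO, and 6 rose and 3 fell in WT. Nrf1 rose by 0.35 in cKO and 0.32 in WT, Gabpa by 0.33 and 0.20, Gabpb1 by 0.96 and 0.56, and Pprc1, a coactivator of NRF1, by 0.91 and 1.121. Myc, a growth factor-induced transcription factor, rose by 1.39 and 1.71, and the coactivator gene Ppargc1b fell by 1.01 and 1.03. Of 10 genes for transcription and replication of mitochondrial DNA, 5 rose and 4 fell in cKO, and 6 rose and 3 fell in WT. Tfam, which packages that DNA, rose by 0.47 and 0.50, and Polg, its polymerase, fell by 0.41 and 0.58. These lists were chosen with earlier results of these data known, and they are described by counts with no test of their own.

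Between genotypes at 48 h, the mitochondrial ribosomal protein genes leaned to lower values in cKO by small amounts, and 1 passed the test. With the groups as labelled, 73 of 78 log2 fold changes of cKO over WT were negative, with a median of -0.19, and the median of all tested genes was 0.00. Of the 78, 1 was called lower and 0 higher, against 1.09% and 3.1% of all tested genes. At an unadjusted p under 0.05, 28 were lower and 0 higher, against 9.59% and 12.6% of tested genes. In 19 of the 78 every cKO library lay below every WT library and in 0 above, against 11% and 13.2% of tested genes.

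The gene that was called, Mrpl43, encodes a 39S protein with no bacterial relative. It had 46.1, 39.6 and 42.3 CPM in cKO at 48 h, against 54.9, 53.3 and 56.7 CPM in WT at 48 h. All 3 cKO libraries, the one labelled replicate 1 included, lay below all 3 WT libraries. The log2 fold change was -0.37 ± 0.09 (edgeR adjusted p = 0.0337), and without the library labelled cKO replicate 1 it was -0.43 ± 0.09 (edgeR adjusted p = 0.00769). At 0 h it lay between 35.2 and 38.4 CPM in cKO and between 33.1 and 39.8 CPM in WT, which overlap. Mrpl43 shares bases with Twnk, the gene of the mitochondrial DNA helicase, for which the cKO over WT value at 48 h was 0.05 ± 0.09, not called. The Mrpl43 call was lost when any of the 3 WT libraries at 48 h, cKO replicate 2 or 3 at 48 h, or cKO replicate 2 at 0 h was left out, and when only the groups compared were fitted.

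The 4 genes next in line were not called by edgeR with the groups as labelled. They were called lower by DESeq2, and by edgeR without the library labelled cKO replicate 1. Mrpl34, a small 39S protein of bacterial descent, had 33.9, 28.3 and 31.8 CPM in cKO at 48 h, against 42.0, 42.6 and 43.8 CPM in WT, with no overlap and a log2 difference of -0.45 ± 0.12 (edgeR adjusted p = 0.0557). Mrps24, a 28S protein at the entry of the messenger RNA channel, had 42.7, 37.7 and 39.02 CPM in cKO, against 49.9, 47.6 and 46.8 CPM in WT (-0.27 ± 0.08, edgeR adjusted p = 0.0664). Mrpl44, a 39S protein with an RNase III-like fold, had 38.2, 34.7 and 35.8 CPM in cKO, against 46.4, 42.7 and 47.1 CPM in WT (-0.33 ± 0.10, edgeR adjusted p = 0.084). For Mrpl11, at the base of the stalk, the values were 42.8, 30.9 and 30.2 CPM in cKO, against 46.5, 43.7 and 44.6 CPM in WT (-0.38 ± 0.12, edgeR adjusted p = 0.0864). In all 4 genes every cKO library was below every WT library, and in Mrpl11 the library labelled cKO replicate 1 lay far nearer to WT than the other 2. Without that library the log2 values were -0.51 ± 0.10 for Mrpl34, -0.33 ± 0.08 for Mrps24, -0.37 ± 0.11 for Mrpl44 and -0.56 ± 0.09 for Mrpl11 (edgeR adjusted p = 0.006, 0.017, 0.036 and 0.00186).

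The 3 cKO libraries at 48 h were not alike. In cKO replicates 2 and 3, 65 of the 78 genes each lay below all 3 WT libraries, against 35.3% and 33.99% of all tested genes in the same libraries, and 59 did so in both. In the library labelled cKO replicate 1 the number was 27, against 26.6% of tested genes, and 43 lay within the WT range. Its values were above those of cKO replicates 2 and 3 for 63 genes and below both for 8. No share of all tested genes was counted for the 59, 43, 63 and 8, so these cannot be set against it. The median of the 78 log2 differences from the WT mean was -0.05 in that library and -0.25 in each of the other 2, and it was 0.03, -0.05 and 0.04 in WT replicates 1, 2 and 3, which define that mean. The summed level was 96.8%, 82.5% and 84.8% of the WT mean in cKO replicates 1, 2 and 3, and Trmt61a was at 111%, 2.49% and 2.87% of it.

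**Figure D4:**
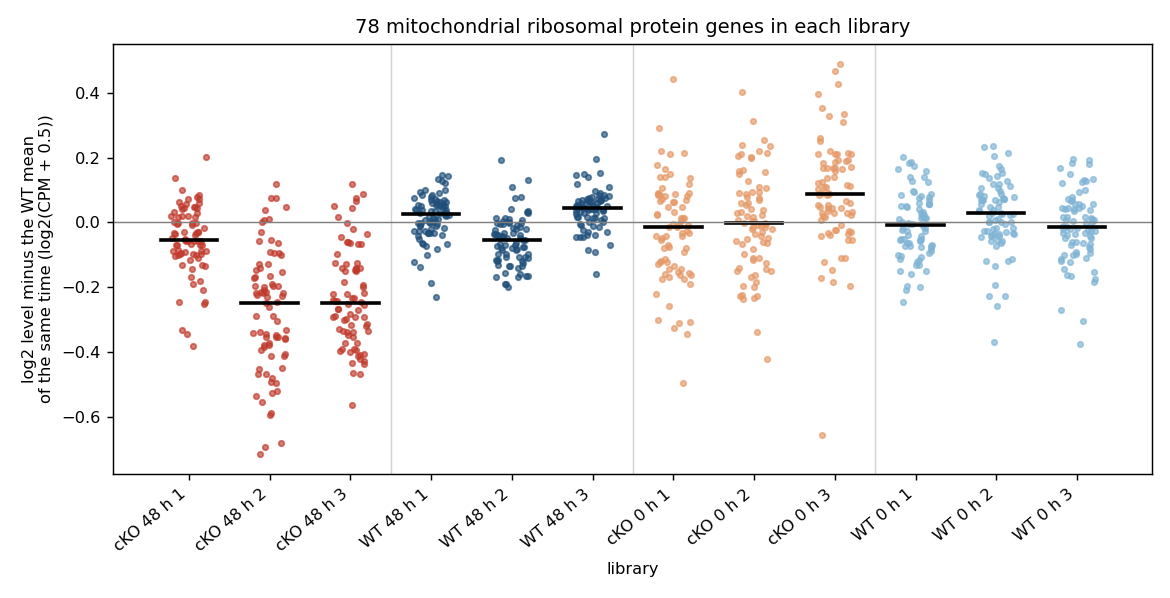
Log2 level of each of the 78 genes in each library minus the mean of the 3 WT libraries of the same time, as points, with the median as a bar, on the log2(CPM + 0.5) scale. At 48 h the medians of cKO replicates 2 and 3 are at -0.25 and that of the library labelled cKO replicate 1 is at -0.05, near the WT libraries.

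Without the library labelled cKO replicate 1 at both times, which leaves 2 cKO libraries against 3 WT libraries, 33 of the 78 genes were lower in cKO at 48 h and 0 were higher, against 8.78% and 8.96% of tested genes. The median log2 fold change was -0.25, 72 of 78 values were negative, and the median over all tested genes was 0.00. The falls of the 33 genes ran from 1.19-fold to 1.47-fold. Both subunits took part, with 22 of 51 39S genes, 10 of 26 28S genes and Mrps36 called lower. Within the large subunit, 11 of the 29 genes with bacterial relatives were called lower, with a median of -0.24. Of the 19 without, 10 were called lower, with a median of -0.30. Mrpl55, in neither list, was also called lower. The 5 genes with the smallest p in this comparison, chosen after their values were seen, were all 39S genes with bacterial relatives. Mrpl11 fell by 0.56 ± 0.09 (edgeR adjusted p = 0.00186), Mrpl12 by 0.50 ± 0.09 (edgeR adjusted p = 0.00292) and Mrpl18 by 0.47 ± 0.09 (edgeR adjusted p = 0.00368). Mrpl28 fell by 0.45 ± 0.09 (edgeR adjusted p = 0.00425) and Mrpl16 by 0.50 ± 0.10 (edgeR adjusted p = 0.00433). Trmt61a was 37.2-fold lower in the same comparison.

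Other gene groups in that comparison were spread around these values. Among the 20 import and chaperone genes 11 were lower and 1 higher, against 8.78% and 8.96% of tested genes, with a median of -0.32. Among the 17 translation factor genes 5 were lower and 0 higher, with a median of -0.18. Of the 86 cytosolic ribosomal protein genes 4 were lower and 6 higher, with a median of 0.03. With the groups as labelled, 2 import genes, Tomm20 and Tomm6, were lower in cKO at 48 h, by 0.29 and 0.35 (log2), and 0 of the translation factors and 0 of the 86 cytosolic ribosomal protein genes were called. Of the 11 regulators 1 was higher in cKO, Gabpb2, which encodes a partner of GABPA, by 0.29 ± 0.07 (edgeR adjusted p = 0.0435). The sum of the NK markers, mostly Eomes, followed the same split of the libraries: cKO replicates 2 and 3 had marker sums of 64.4 and 76.1 CPM, the library labelled cKO replicate 1 had 113, and the WT libraries had 110.3 to 118 CPM. The part of the NK marker genes in the result was not tested. Leaving out WT replicate 3 at both times instead gave 0 genes lower and 0 higher, against 0.00791% and 0.119% of tested genes, with a median of -0.17. At an unadjusted p under 0.05, 14 genes were then lower and 0 higher. The share of all tested genes at that threshold was not counted in this fit, so these 14 cannot be set against it.

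**Figure D5:**
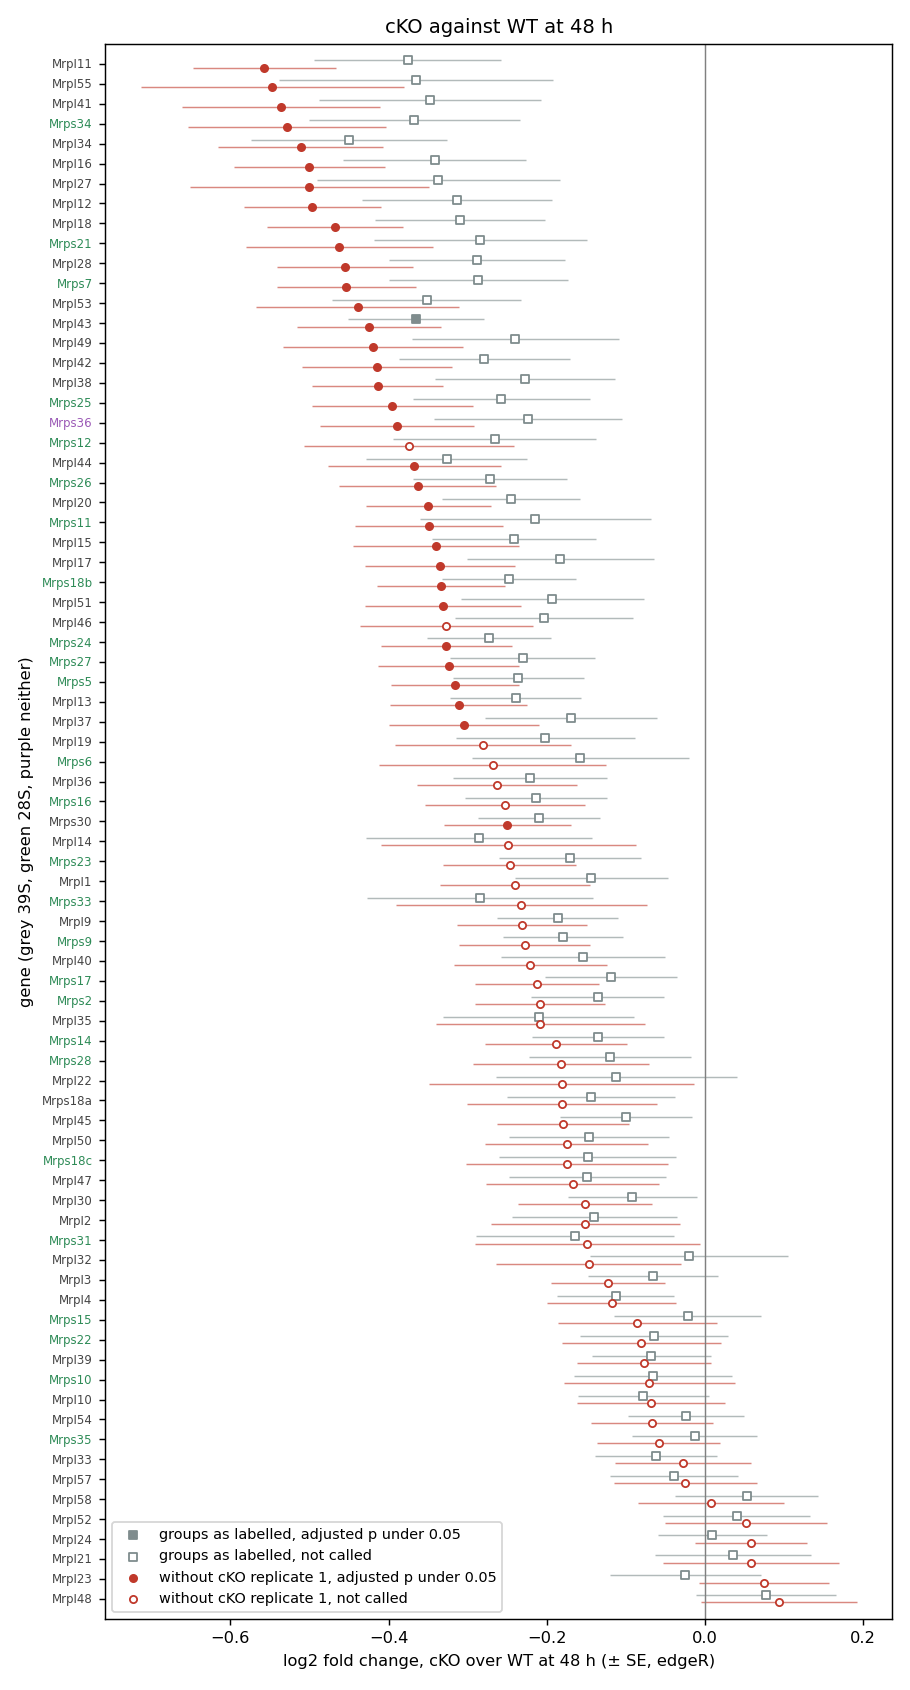
Log2 fold change of cKO over WT at 48 h (± SE, edgeR) for each of the 78 genes, with the groups as labelled (squares) and without the library labelled cKO replicate 1 (circles), with filled symbols for adjusted p under 0.05. Of the squares 1 is filled and of the circles 33 are, and 73 squares and 72 circles lie left of 0.

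At 0 h the genes of cKO and WT lay together. Of the 78, 0 were called in either direction by edgeR, against 0.00806% of tested genes higher and 0% lower, and the median log2 fold change was 0.04. At an unadjusted p under 0.05, 7 were higher and 1 lower, against 4.3% and 5.08% of tested genes. All cKO libraries lay above all WT libraries for 11 genes and below for 3, against 7.32% and 7.35% of tested genes. DESeq2 called 1 gene, Mrps28, higher, and limma-voom called 0, with no share of all tested genes given here for either fit. Mrps28, a 28S relative of bacterial S1, had 16.3, 15.8 and 16.8 CPM in cKO at 0 h, against 13.3, 10.7 and 11.6 CPM in WT at 0 h. All cKO libraries, the one labelled replicate 1 included, were above all WT libraries, and the difference on the log2 scale was 0.46 ± 0.11, not called (edgeR adjusted p = 0.247). Mrps6 had the lowest value, -0.43 ± 0.15 (edgeR adjusted p = 0.433), with 1 cKO library above the lowest WT library. Without the library labelled cKO replicate 1, edgeR called 0 genes, against 0.0949% of tested genes higher and 0.0554% lower, and 51 of the 78 values were positive, with a median of 0.07. At an unadjusted p under 0.05, 8 were then higher and 1 lower, with no share of all tested genes counted at that threshold in this fit. Mrps28 then had 0.46 ± 0.11 (edgeR adjusted p = 0.159).

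The interaction, the cKO change over time minus the WT change, leaned the same way as the difference at 48 h. The value was negative for 72 of 78 genes, against 5990 of the 12404 tested genes, with a median of -0.21, and no gene was called by edgeR, against 0.105% of tested genes higher and 0.00806% lower. At an unadjusted p under 0.05, 19 were lower and 0 higher, against 6.93% and 9.78% of tested genes. The smallest p belonged to Mrps18b, with -0.48 ± 0.12, and Mrps28, with -0.58 ± 0.15 (edgeR adjusted p = 0.0931 for both). Next were Mrps16, with -0.47 ± 0.13, Mrpl34, with -0.64 ± 0.18, and Mrpl43, with -0.41 ± 0.12 (edgeR adjusted p = 0.107, 0.11 and 0.127). The 9 genes called higher at 48 h in WT and not called in cKO were Mrpl14, Mrpl34, Mrpl49, Mrpl53, Mrpl57, Mrps16, Mrps21, Mrps24 and Mrps34, and edgeR called 0 of their interactions. DESeq2 called the interaction lower for 4 genes, Mrps28, Mrps18b, Mrpl34 and Mrps16, with no share of all tested genes given here for that fit. Without the library labelled cKO replicate 1, edgeR called 15 genes lower and 0 higher, against 3.34% and 3.53% of tested genes. Mrpl34 then had -0.83 ± 0.15 (edgeR adjusted p = 0.0118), and Mrps18b and Mrpl12 had -0.60 ± 0.12 and -0.63 ± 0.12 (edgeR adjusted p = 0.0161 for both). Mrps28, Mrpl43 and Mrps16 were also among the 15, with -0.64 ± 0.16, -0.50 ± 0.13 and -0.52 ± 0.14 (edgeR adjusted p = 0.0337, 0.038 and 0.0459).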

How the data were processed

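Total RNA of CD8 T cells was sequenced in 12 libraries, 3 in each of 4 groups set by the sample titles. Per the labels' protocols, RNA was taken with TRIzol and libraries were made with a NEBNext Ultra RNA kit. The submitters' processing notes name the trimmer fastp 0.20.1, the aligner HISAT2 2.1.0, the counter HTSeq 0.11.2, FastQC 0.11.9, SAMtools 1.9 and the build GRCm39, with no strand setting. The authors deposited whole-number read counts for each gene, with no normalization. Depth was about 34341800 to 40270700 counts per library.

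Counts were tested with edgeR 4.0.16 (R 4.3.3). Genes were kept by filterByExpr (minimum count 10, minimum total 15), and libraries were scaled with TMM. One quasi-likelihood model with 4 group means and 8 residual degrees of freedom gave the 5 comparisons (cKO against WT at each time, 48 h against 0 h in each genotype, and the interaction), with p-values adjusted by Benjamini-Hochberg over the 12404 tested genes. A gene was called at an adjusted p under 0.05. The error given with a log2 fold change is its size divided by the square root of F. Errors of CPM are SDs over 3 libraries. The procedure was tested on simulated data. Alternatives used DESeq2 1.42.0, limma-voom (limma 3.58.1), other scalings and filters, a replicate block, and fits without libraries.

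Named genes were 15 genes chosen by their site in the ribosome, the 8 highest and 8 lowest called genes over time, the 5 genes with the smallest p where fewer than 3 were called, and called genes against the majority. Of the many this names, the text gives the strongest. Genes of related lists were named by their smallest adjusted p, and some, Polg, Tfam, Nrf1 and Gabpa among them, for their known role after their values were seen. The gene set, the lists and the alternatives were chosen with earlier results of these data known. Sequences, lengths and overlaps come from GRCm38 tables, not the build of the counts. An item is not reported here.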

Additional observations from a re-analysis of the deposited data

How the results depend on the processing

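Counts of genes changed over time stayed within 1.5 times under the scalings, filters and tools tried. Leaving out 1 library at a time gave 58 to 64 genes higher in cKO, 69 to 71 higher in WT and 2 to 4 lower in cKO, with 2 lower when cKO replicate 2 or 3 at 48 h was left out. Upper-quartile scaling moved the median of all tested genes by -0.09 in cKO and -0.10 in WT, and no named gene that was called changed sign under any alternative. The count of genes lower in cKO at 48 h, 1 with the groups as labelled, was 2 with no filter, 5 with DESeq2 and 3 with limma-voom. It was 0 to 30 when 1 library was left out, with the 30 found when the 48 h library labelled cKO replicate 1 was dropped. It was 33 without both libraries of that label, against 8.78% of tested genes, and 0 without both libraries of WT replicate 3, against 0.00791%. The genes called under each of these settings were all among the 33. DESeq2 called 1 gene higher in cKO at 0 h. For the interaction the count lower was 0 as labelled, 4 with DESeq2, 0 to 18 when 1 library was left out, and 15 without both libraries labelled cKO replicate 1. Shares of all tested genes called were given above for the groups as labelled and without both libraries labelled cKO replicate 1. For cKO against WT at 48 h they were also given without WT replicate 3. For the other settings no such share is given here, so those counts cannot be set against all tested genes.

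Replicate numbers were not taken to pair samples: deviations of same-numbered libraries at 48 h and 0 h correlated at 0.06 to 0.08 in cKO and 0.08 to 0.21 in WT, and those of same-numbered cKO and WT libraries at 0.27, 0.19 and 0.00094 at 48 h and -0.14 to 0.04 at 0 h. Each library correlated best with its own number at the other time. The deposited counts also carry the same ids at both times. The lack of Y-linked counts in WT replicate 3 and the WT level of Trmt61a in cKO replicate 1 recurred at both times. These are hints that same-numbered libraries share a source, which the labels do not state, and the main tests did not use such pairs. With the replicate block 14 genes were lower in cKO at 48 h, and the other counts of calls stayed within 1.5 times. Between genotypes this block matched cKO and WT libraries of the same number, a pairing the labels do not give. The share of all tested genes called in that fit is not given here. For the time comparisons and the interaction, the block joined the 48 h and 0 h libraries of the same genotype and number.

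The log2 rise of the summed level in WT, 0.76, was 0.65 with upper-quartile scaling, 0.83 as a mean of log2 values, and 0.74 to 0.80 when 1 library was left out. The log2 change of the 39S to 28S ratio in cKO, 0.047, was 0.0051 as a mean of log2 values. The log2 rise over cytosolic ribosomal protein genes in cKO, 1.34, was 1.20 without both libraries labelled cKO replicate 1 and 1.24 to 1.40 when 1 library was left out. In WT it was 1.56, and 1.51 as a mean of log2 values.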
